A study of Homo sapiens with 6 samples.

Results

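The 10 genes ULBP1, ULBP2, ULBP3, RAET1G, RAET1L, MICA, MICB, NCR3LG1, PVR and NECTIN2 encode ligands for activating receptors of natural killer (NK) cells, and 9 of them were found by symbol among the 12793 rows of the deposited table. The RNA level of RAET1G was not analysed here, and only its promoter window was searched. The symbols were picked with the difference between these same groups already known, so every difference of a ligand below is a description and carries no p-value. RNA came from HCT15, an established colorectal cancer line, grown in serum-containing RPMI-1640 with no treatment or time course. The table held 3 libraries labelled RBM15 knockout (sgRBM15, made with CRISPR/Cas9) and 3 libraries with a control guide (sgctrl, genotype WT). The number of guides or clones behind the knockout is not stated in the labels. RBM15 binds RNA and helps bring the m6A methyltransferase to it.

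NK cells kill when activating receptors outweigh inhibitory ones that read MHC class I. NKG2D binds MICA and MICB, transmembrane proteins built like MHC class I molecules, and the ULBP and RAET1 proteins, most of which hang on the membrane by a glycosylphosphatidylinositol (GPI) anchor. NKp30 binds B7-H6, the product of NCR3LG1, and CD226 (DNAM-1) binds PVR (CD155) and NECTIN2 (CD112), which the inhibitory receptor TIGIT also binds. Many of these ligands appear on stressed or transformed epithelial cells. The libraries measured RNA, and the amount of ligand on the cell surface was not measured.

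The targeted gene was higher, not lower, by its label. RBM15 had 17.3, 18.5 and 18.0 FPKM (fragments scaled to transcript length and to the mapped total of the library) in the libraries labelled knockout, against 5.97, 5.89 and 5.51 FPKM in the control libraries. An exact 2-sided permutation test returned p = 0.1, the smallest value that 20 possible assignments allow. An mRNA level does not check a Cas9 cut, so groups are named by label throughout. Columns summed to between 402288 and 415057 FPKM, the read depth behind them is unknown, and log2 levels correlated across genes at 0.992 to 0.993 for libraries of the same group and 0.976 to 0.978 otherwise. Separate cultures are not mentioned in any label, so the spread between libraries, on which every p-value here rests, may be technical. Of 11 colorectal epithelial markers 7 were listed. The keratin gene KRT8 had 1339 to 1449 FPKM in the libraries labelled knockout and 1269 to 1307 FPKM in the control libraries. EPCAM had 412 to 419 FPKM in the libraries labelled knockout and 523 to 534 FPKM in the control libraries. Most of the listed epithelial markers were lower in the libraries labelled knockout, unlike KRT8, and their calls are given below. Among 13 NK cell markers PRF1 alone was listed, at 1.32 to 1.70 FPKM in the libraries labelled knockout and 0.566 to 0.807 FPKM in the control libraries. Of 13 markers of other leukocytes, fibroblasts and endothelium, CD14 and COL1A1 were listed, each at 5.48 FPKM or less in every library. In bulk RNA, fewer cells with a transcript and less of it per cell cannot be told apart.

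The ligand genes split in direction. NCR3LG1, MICB, ULBP2 and PVR were higher and ULBP1, ULBP3 and NECTIN2 were lower in the libraries labelled knockout, while MICA and RAET1L overlapped between the groups. By limma on log2(FPKM + 1), with Benjamini-Hochberg adjustment over all genes and a threshold of 0.05, 7 of the 9 tested ligands were called, against 54.5% of all 11451 tested genes. All 9 passed the filter of a mean of at least 1 FPKM, and none had a library below that level. Higher calls were 4 (25.3% of all genes) and lower calls 3 (29.2% of all genes). Over all genes, 2896 calls were higher and 3349 lower, and this order turned under median centring (3239 higher, 3044 lower) and quantile normalization (3367 higher, 2894 lower). The values of the groups did not overlap for 7 of the 9, against 63.0% of all genes. The median difference of the 9 was 0.12 on the log2 scale, and that of all tested genes was -0.018. Since the ligands were picked on this contrast, nothing is read from these counts. ULBP1 and NCR3LG1 differed by at least 1 on the log2 scale, as did 1.79% of all genes.

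**Figure D1:**
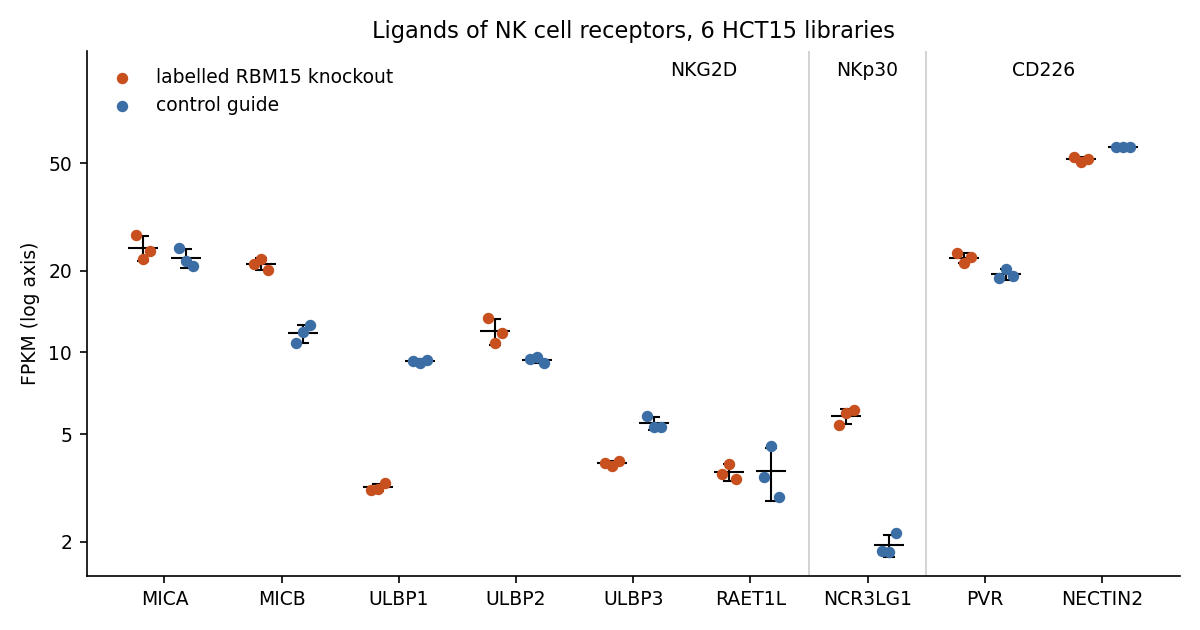
FPKM (log axis) of the 9 listed ligand genes in each library, with knockout-labelled libraries left of control libraries for each gene; dots are libraries, black bars the mean and SD of 3. ULBP1 sits near 3.18 FPKM in the libraries labelled knockout and near 9.28 FPKM in the controls, NCR3LG1 sits near 5.83 FPKM in the libraries labelled knockout and near 1.95 FPKM in the controls, and the dots of MICA and RAET1L overlap.

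MICA and MICB are neighbouring paralogs on the plus strand of chromosome 6. In GENCODE 29 on GRCh38, MICA (ENSG00000204520) spans 31399784 to 31415315 and MICB (ENSG00000204516) spans 31494881 to 31511124. Their coding sequences were identical at 92.1% of 989 aligned bases. Both promoters are shown because this close pair is compared next. The 250 bases before the RefSeq start (GRCh38.p14, plus strand, chr6:31403345-31403594 for MICA and chr6:31497895-31498144 for MICB) were identical at 85.0% of 246 aligned bases. Capitals mark matches, on either strand, to a heat shock element (GAANNTTC), a GC box (GGGCGG) and a CCAAT box (CCAAT); these matches do not overlap each other. The GENCODE spans begin upstream of these windows.
MICA: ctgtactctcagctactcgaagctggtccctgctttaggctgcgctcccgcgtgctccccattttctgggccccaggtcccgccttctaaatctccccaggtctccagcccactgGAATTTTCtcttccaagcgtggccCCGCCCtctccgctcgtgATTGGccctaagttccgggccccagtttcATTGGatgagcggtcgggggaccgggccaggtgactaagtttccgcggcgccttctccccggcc
MICB: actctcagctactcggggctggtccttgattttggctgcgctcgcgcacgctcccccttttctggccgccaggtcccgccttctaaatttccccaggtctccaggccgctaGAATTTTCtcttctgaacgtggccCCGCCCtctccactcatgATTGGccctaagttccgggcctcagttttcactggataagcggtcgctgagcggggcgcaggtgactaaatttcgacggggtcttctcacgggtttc
Each window held 1 heat shock element, which 5.78% of 35116 promoter windows of that length held, and 1 GC box, which 42.6% held. MICA had 2 CCAAT boxes and MICB had 1, and 32.0% of windows held at least 1. A match is a description of letters, not a bound site.

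MICB had 21.3, 22.2 and 20.2 FPKM in the libraries labelled knockout, against 10.8, 11.9 and 12.6 FPKM in the control libraries. Every library labelled knockout lay above every control library. MICB averaged 21.3 ± 0.982 FPKM in the libraries labelled knockout and 11.8 ± 0.866 FPKM in the control libraries (SD, n = 3 each), a difference of 0.80 on the log2(FPKM + 1) scale (SE 0.062). MICA had 27.1, 22.2 and 23.6 FPKM in the libraries labelled knockout, against 24.3, 21.8 and 20.9 FPKM in the control libraries. The groups overlapped, with knockout library 1 the highest of the 6. The difference of MICA was 0.12 on the log2 scale (SE 0.084), with a limma 95% interval of -0.082 to 0.32. MICB transcripts per MICA transcript were 0.786, 0.998 and 0.859 in the libraries labelled knockout, against 0.446, 0.547 and 0.602 in the control libraries, and knockout library 2 was the nearest to equal levels. None of the 150-base windows of either mRNA occurred in a transcript of another gene.

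The ULBP and RAET1 genes lie together elsewhere on chromosome 6, and their differences did not share a direction. ULBP1 (ENSG00000111981, plus strand, 149964007 to 149973710) had the largest fall of the 9 ligands. The ULBP1 promoter window (RefSeq, GRCh38.p14, plus strand, chr6:149963693-149963942) is shown for that reason, with that of NCR3LG1, the ligand gene with the largest rise (plus strand, chr11:17351550-17351799). Capitals again mark matches to the motifs searched, here GC boxes only. The NCR3LG1 window runs past the GENCODE start of that gene at 17351726, so its last bases lie inside the GENCODE span.
ULBP1: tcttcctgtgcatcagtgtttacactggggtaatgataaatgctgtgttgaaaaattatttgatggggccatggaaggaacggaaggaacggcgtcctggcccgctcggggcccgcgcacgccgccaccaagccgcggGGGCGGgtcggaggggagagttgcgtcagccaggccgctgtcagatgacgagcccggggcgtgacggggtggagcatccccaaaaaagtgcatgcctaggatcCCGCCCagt
NCR3LG1: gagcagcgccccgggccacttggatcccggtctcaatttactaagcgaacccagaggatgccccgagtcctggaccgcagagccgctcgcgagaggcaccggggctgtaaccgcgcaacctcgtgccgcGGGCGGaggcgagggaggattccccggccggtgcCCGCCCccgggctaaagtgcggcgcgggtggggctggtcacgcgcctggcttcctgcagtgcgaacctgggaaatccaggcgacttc
Each of these windows held 2 GC boxes. Neither held the C/EBP-ATF motif TGATGNAA (3.14% of windows), the cyclic AMP response element TGACGTCA (1.65%), the AP-1 motif TGANTCA (6.57%), the E-box CACGTG (6.34%) or the heat shock element. Of the 10 ligand genes, RAET1L alone held an AP-1 motif, and the C/EBP-ATF, cyclic AMP and E-box motifs were in none of the 10 windows. A missing match says only that these letters are absent from this window.

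ULBP1 had 3.11, 3.13 and 3.29 FPKM in the libraries labelled knockout, against 9.32, 9.12 and 9.41 FPKM in the control libraries. The spread within each group was small next to the gap between them. ULBP1 averaged 3.18 ± 0.0992 FPKM in the libraries labelled knockout and 9.28 ± 0.147 FPKM in the control libraries (SD, n = 3 each), so it was 2.92-fold lower in the libraries labelled knockout, and the log2 difference was -1.30 (SE 0.050). Its absolute difference was at the 99.3 percentile of all tested genes.

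ULBP3, another GPI-anchored NKG2D ligand, also fell but by less. It had 3.90, 3.82 and 3.96 FPKM in the libraries labelled knockout, against 5.81, 5.31 and 5.31 FPKM in the control libraries, and the log2 difference was -0.40 (SE 0.057). ULBP2 went the other way. Its values were 13.4, 10.8 and 11.8 FPKM in the libraries labelled knockout, against 9.43, 9.65 and 9.13 FPKM in the control libraries, with a log2 difference of 0.32 (SE 0.076). The groups did not overlap, though the libraries labelled knockout spread more widely (SD 1.31 FPKM) than the controls (SD 0.264 FPKM).

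RAET1L, which encodes ULBP6, gave no direction. It had 3.56, 3.89 and 3.40 FPKM in the libraries labelled knockout, against 3.46, 4.52 and 2.94 FPKM in the control libraries, a log2 difference of 0.006 (SE 0.124) with a limma 95% interval of -0.29 to 0.30. The control libraries, with a coefficient of variation of 22.1%, bracketed all 3 libraries labelled knockout. RAET1L and ULBP2 were identical at 96.7% of 738 aligned coding bases. Of their 150-base windows, 51 were shared, 4.49% of those of RAET1L and 4.25% of those of ULBP2, so the division of reads between this pair is uncertain. ULBP3 shared 1.31% of its windows with the related gene RAET1K, and ULBP1 shared none.

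The 6 listed NKG2D ligands were also summed as a pool, for description only. The summed level was 72.4, 66.1 and 66.3 FPKM in the libraries labelled knockout, against 63.2, 62.3 and 60.2 FPKM in the control libraries. The sums did not overlap. MICA and MICB together made 66.9, 67.3 and 66.1% of the pool in the libraries labelled knockout, against 55.7, 54.1 and 55.5% in the control libraries. ULBP1 made 4.30, 4.73 and 4.96% in the libraries labelled knockout, against 14.7, 14.7 and 15.6% in the control libraries. The share of MICA averaged 35.6 ± 1.89% in the libraries labelled knockout and 36.0 ± 2.14% in the control libraries (SD, n = 3 each). ULBP2 transcripts per ULBP1 transcript averaged 3.78 ± 0.456 in the libraries labelled knockout and 1.01 ± 0.0442 in the control libraries. Within the pool, MICA and MICB summed to 45.6 ± 2.51 FPKM in the libraries labelled knockout and 34.1 ± 0.941 FPKM in the control libraries. The ULBP and RAET1 genes summed to 22.7 ± 1.18 FPKM in the libraries labelled knockout and 27.8 ± 0.926 FPKM in the control libraries.

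**Figure D2:**
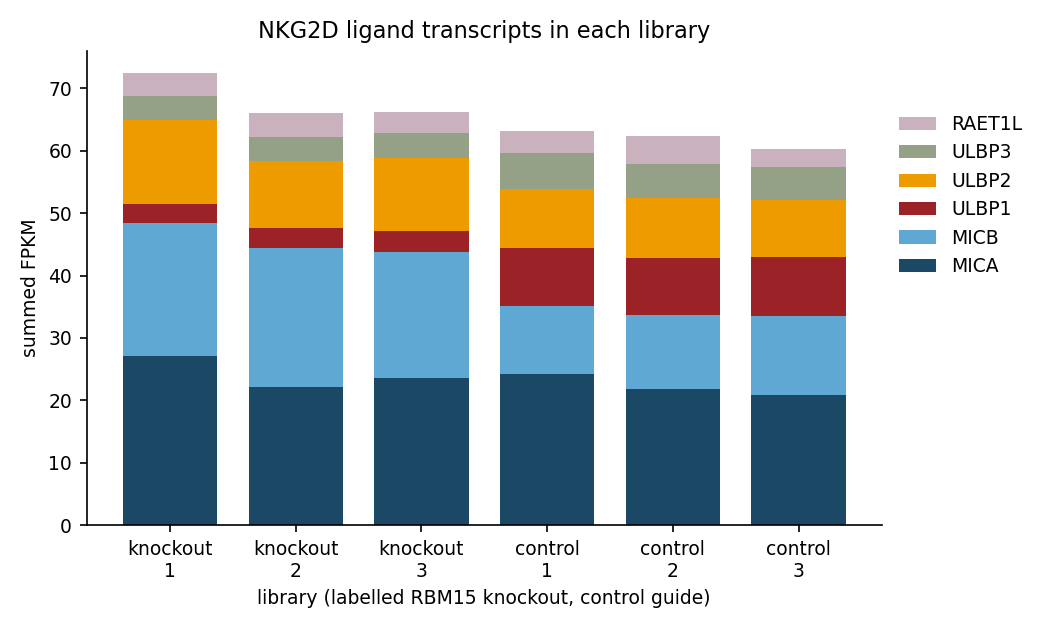
Summed FPKM of the 6 listed NKG2D ligand genes in each library, stacked by gene, with the 3 libraries labelled knockout on the left and the 3 control libraries on the right. The ULBP1 segment is 3.11 to 3.29 FPKM high on the left and 9.12 to 9.41 FPKM on the right, and the MICB segment is 20.2 to 22.2 FPKM on the left and 10.8 to 12.6 FPKM on the right.

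NCR3LG1 (ENSG00000188211; chromosome 11, plus strand, 17351726 to 17377341) had the largest rise of the 9 ligands. It had 5.41, 5.96 and 6.11 FPKM in the libraries labelled knockout, against 1.85, 1.83 and 2.15 FPKM in the control libraries. The groups were far apart, and NCR3LG1 was the lowest of the 9 ligands in the control libraries but the sixth in order in the libraries labelled knockout. NCR3LG1 averaged 5.83 ± 0.366 FPKM in the libraries labelled knockout and 1.95 ± 0.179 FPKM in the control libraries (SD, n = 3 each), a ratio of 2.99, and the log2 difference was 1.21 (SE 0.074). The chaperone gene BAG6, whose product is also described as an NKp30 ligand, was much more abundant. It had 88.0, 84.0 and 86.3 FPKM in the libraries labelled knockout and 80.3, 81.6 and 81.1 FPKM in the control libraries. BAG6 differed by 0.087 (limma adjusted p = 0.0394), a call lost under quantile normalization (limma adjusted p = 0.0978) and with no variance trend (0.0899), and without any 1 library but knockout library 2 (0.0756 to 0.121). NCR3LG1 transcripts per BAG6 transcript averaged 0.0677 ± 0.00539 in the libraries labelled knockout and 0.0240 ± 0.0022 in the control libraries.

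The CD226 ligands PVR and NECTIN2 moved by little and in opposite directions. PVR (ENSG00000073008, chromosome 19, plus strand, 44643798 to 44663583) had 23.2, 21.4 and 22.6 FPKM in the libraries labelled knockout, against 18.8, 20.4 and 19.1 FPKM in the control libraries, with a log2 difference of 0.19 (SE 0.049). NECTIN2 (ENSG00000130202, chromosome 19, plus strand, 44846175 to 44889228), the most abundant of the 9 ligands in each group, had 52.8, 50.7 and 51.7 FPKM in the libraries labelled knockout, against 57.6, 57.6 and 57.4 FPKM in the control libraries. Its log2 difference was -0.15 (SE 0.029). Neither gene overlapped between the groups, and both differences lay under the size of 0.206 that is the median over all tested genes. Of the 3519 exonic bases of PVR, 121 overlap exons of CEACAM19, which was also listed. The sum of PVR and NECTIN2 was 74.1 ± 1.94 FPKM in the libraries labelled knockout and 76.9 ± 0.903 FPKM in the control libraries, while PVR transcripts per NECTIN2 transcript were 0.432 ± 0.00952 in the libraries labelled knockout and 0.338 ± 0.0149 in the control libraries (SD, n = 3 each).

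**Figure D3:**
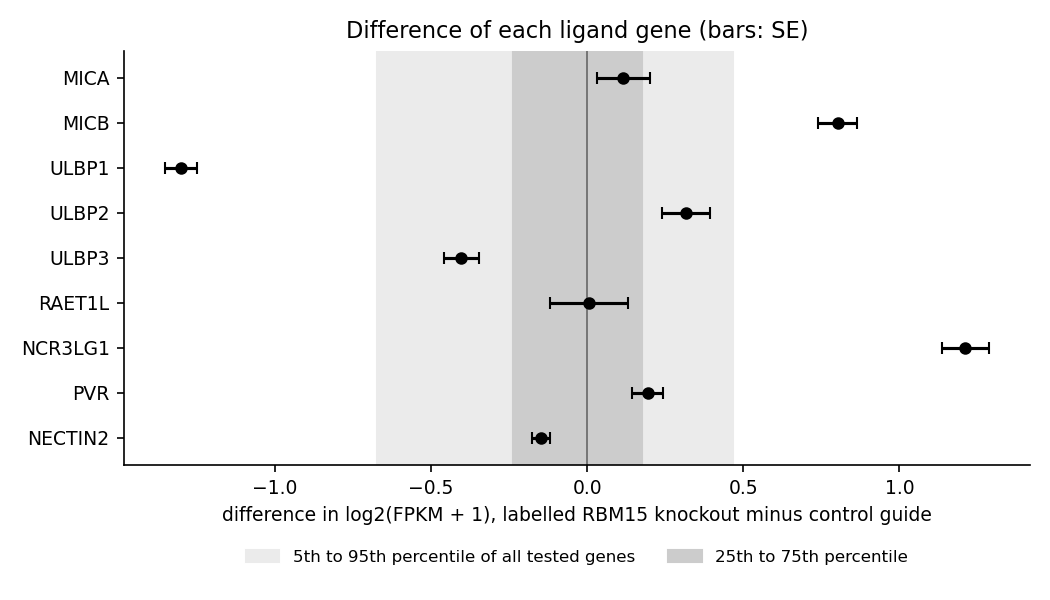
Difference in log2(FPKM + 1), libraries labelled knockout minus control libraries, for each ligand gene, with bars of 1 SE; shaded bands span the 5th to 95th and the 25th to 75th percentiles of all tested genes. ULBP1 at -1.30, MICB at 0.80 and NCR3LG1 at 1.21 lie outside the wider band, which runs from -0.67 to 0.47.

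In order of level, the libraries labelled knockout ran NECTIN2, MICA, PVR, MICB, ULBP2, NCR3LG1, ULBP3, RAET1L and ULBP1. There, MICA overlapped PVR, PVR overlapped MICB and ULBP3 overlapped RAET1L. The control libraries ran NECTIN2, MICA, PVR, MICB, ULBP2, ULBP1, ULBP3, RAET1L and NCR3LG1, and only ULBP2 and ULBP1 overlapped as neighbours. ULBP1 lay at the 24.9 percentile of all listed rows in the libraries labelled knockout and at the 46.5 percentile in the control libraries. NCR3LG1 lay at the 35.2 percentile in the libraries labelled knockout and at the 17.0 percentile in the control libraries. MICB lay at the 70.3 percentile in the libraries labelled knockout and at the 53.2 percentile in the control libraries.

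Over the 6 libraries, among genes averaging 5 FPKM or more across both groups, those whose log2 level ran most like that of NCR3LG1 were PI4K2A, DNTTIP2 and DDX42 (Pearson r of 0.99958, 0.99957 and 0.99956). Those most like ULBP1 were VIL1, which encodes the microvillus protein villin, the EGF family ligand gene EREG and the intestinal transcription factor gene CDX2 (r of 0.99978, 0.99977 and 0.99959). The 6 points fall into the 2 groups, so many genes reach such values: of 8724 genes with a symbol compared, 1222 reached 0.95 with NCR3LG1 and 1307 with ULBP1. VIL1 had 3.80, 3.69 and 4.12 FPKM in the libraries labelled knockout, against 17.2, 16.8 and 17.0 FPKM in the control libraries, so it passed that minimum through the control libraries alone. Of the 7 listed epithelial markers, 5 were lower by call (VIL1, CDX2, KRT19, EPCAM and KRT18) and KRT8 was higher, where 29.2% of all tested genes were called lower and 25.3% higher. The KRT8 call was lost with no variance trend (limma adjusted p = 0.0833) and without any 1 library but knockout library 3 (0.0578 to 0.0862), and that of KRT18 under quantile normalization (0.0749). Their summed level was 3481 to 3621 FPKM in the libraries labelled knockout and 3803 to 3896 FPKM in the control libraries, and its part in the ligand differences was not tested.

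With earlier results of these data known, genes of other ligands that NK cell receptors meet were listed from textbook knowledge, along with death receptor genes. Of 35 such genes, 24 were in the table and 22 were tested; 5 rose and 11 fell in the libraries labelled knockout by limma, 72.7% against the 54.5% of all genes (25.3% higher and 29.2% lower), and their median log2 difference was -0.15. CLEC2D, which encodes the CD161 ligand LLT1, fell to 2.50, 2.85 and 2.43 FPKM in the libraries labelled knockout, against 5.04, 5.17 and 5.30 FPKM in the control libraries (log2 difference -0.78, limma adjusted p = 0.000135). ICAM2, an adhesion ligand of the integrin LFA-1, fell to 4.25, 2.82 and 3.21 FPKM in the libraries labelled knockout, against 5.73, 6.05 and 6.74 FPKM in the control libraries (-0.71, limma adjusted p = 0.00265). ICAM3, another LFA-1 ligand gene, was higher, with 9.07, 10.1 and 11.9 FPKM in the libraries labelled knockout and 6.62, 6.31 and 6.31 FPKM in the control libraries (0.61, limma adjusted p = 0.00132). ICAM1, a further LFA-1 ligand gene, was lower (log2 difference -0.57, limma adjusted p = 4.56e-05) and was named after its values were seen. It averaged 27 FPKM in the libraries labelled knockout and 40.7 FPKM in the control libraries.

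TNFRSF10A, a receptor for the death ligand TRAIL that NK cells carry, rose to 20.8, 21.1 and 20.3 FPKM in the libraries labelled knockout, against 12.8, 13.7 and 12.8 FPKM in the control libraries (0.63, limma adjusted p = 5.53e-05). TNFRSF10B, another TRAIL receptor gene, fell to 44.8, 47.1 and 46.0 FPKM in the libraries labelled knockout, against 57.2, 56.3 and 57.2 FPKM in the control libraries (-0.30, limma adjusted p = 0.000292). HLA-E, the ligand of the inhibitory receptor NKG2A, fell to 48.2, 48.4 and 47.7 FPKM in the libraries labelled knockout, against 54.1, 55.6 and 54.0 FPKM in the control libraries (-0.18, limma adjusted p = 0.002). The remaining genes that rose were BAG6, the adhesion gene NECTIN1 and PCNA, best known as the DNA polymerase clamp. TNFRSF10B, BAG6, HLA-E, NECTIN1 and PCNA were named after their values were seen. RAET1E, a further NKG2D ligand gene, had 0.155, 0.364 and 0.0544 FPKM in the libraries labelled knockout and 0.0521, 0.446 and 0.395 FPKM in the control libraries, below the filter.

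Among 26 tested factors described as regulators of NKG2D ligands or their genes, 10 rose and 4 fell in the libraries labelled knockout. These calls made 53.8%, against the 54.5% of all genes (25.3% higher and 29.2% lower), and the median log2 difference of the list was 0.12. ATF4, a transcription factor reported to drive ULBP1, fell to 321, 298 and 320 FPKM in the libraries labelled knockout, against 578, 618 and 607 FPKM in the control libraries (-0.94, limma adjusted p = 9.25e-06). EGR1, an immediate early transcription factor gene, fell to 45.9, 45.3 and 42.7 FPKM in the libraries labelled knockout, against 91.2, 90.9 and 93.3 FPKM in the control libraries (-1.02, limma adjusted p = 5.07e-06). E2F3, of the E2F family that drives cell cycle entry, rose to 13.6 ± 0.713 FPKM in the libraries labelled knockout, against 9.57 ± 0.693 FPKM in the control libraries (SD, n = 3 each; limma adjusted p = 0.000882). SPCS1, which encodes a subunit of the signal peptidase complex, rose to 57.3, 54.7 and 56.3 FPKM in the libraries labelled knockout, against 46.5, 34.8 and 45.0 FPKM in the control libraries (0.42, limma adjusted p = 0.012). HSF1, which binds heat shock elements, and SP1, which binds GC boxes, were the remaining lower calls. HSF1 averaged 31.8 FPKM in the libraries labelled knockout and 38.5 FPKM in the control libraries. SP1 averaged 32.5 FPKM in the libraries labelled knockout and 37.1 FPKM in the control libraries. Its relative SP3, on the same list, was called higher (0.29, limma adjusted p = 0.00712). SP3 averaged 36.5 FPKM in the libraries labelled knockout and 29.8 FPKM in the control libraries. HSF1, SP1 and SP3 were named after their values were seen. Whether any of these factors acts on the ligands or their genes here was not tested.

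**Figure D4:**
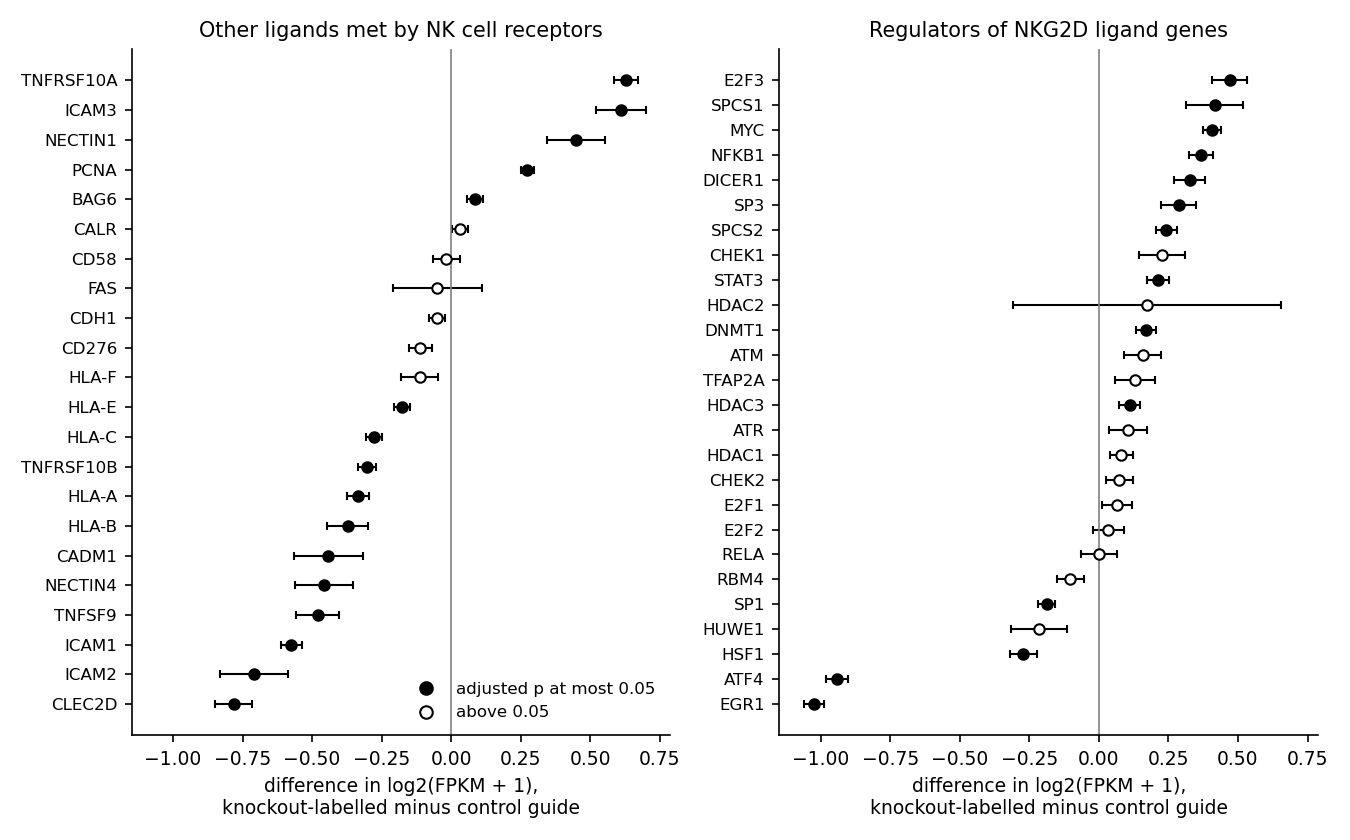
Difference in log2(FPKM + 1), libraries labelled knockout minus control libraries. The left panel holds the 22 tested other ligand and death receptor genes, the right panel the 26 regulators. Bars are 1 SE and filled dots have a limma adjusted p of at most 0.05. CLEC2D at -0.78 and TNFRSF10A at 0.63 end the left panel, EGR1 at -1.02 and E2F3 at 0.47 the right one.

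Genes for shedding and for anchoring of the ligands were counted next. Of 8 shedding genes 5 were tested, and 2 of them rose, while 25.3% of all tested genes were called higher. MMP14, a membrane metalloprotease able to cut MICA, rose to 9.0 ± 0.602 FPKM in the libraries labelled knockout, against 6.53 ± 0.220 FPKM in the control libraries (SD, n = 3 each; log2 difference 0.41, limma adjusted p = 0.00128), and PDIA6, named after its values were seen, rose by 0.090 (limma adjusted p = 0.0195). The PDIA6 call was lost with no variance trend (limma adjusted p = 0.0733) and without knockout library 1 (0.0652), control library 2 (0.0601) or control library 3 (0.0602). The sheddase genes ADAM10 and ADAM17 differed by 0.060 and 0.064, with limma adjusted p = 0.322 and 0.308. Of the 5 genes of the GPI transamidase, which attaches the anchor that ULBP1, ULBP2 and ULBP3 use, PIGU, GPAA1 and PIGK fell and PIGS, named after its values were seen, rose by 0.125 (limma adjusted p = 0.0235). The PIGS call was lost without knockout library 1 (limma adjusted p = 0.072), knockout library 3 (0.0604), control library 1 (0.0715) or control library 2 (0.0724). PIGU fell to 18.9, 18.0 and 17.8 FPKM in the libraries labelled knockout, against 23.0, 24.4 and 21.5 FPKM in the control libraries (-0.32, limma adjusted p = 0.0025). GPAA1 differed by -0.22 (limma adjusted p = 0.00286) and PIGK by -0.19 (limma adjusted p = 0.0209). The PIGK call was lost under quantile normalization (limma adjusted p = 0.0526) and without knockout library 2 (0.0589), control library 1 (0.0679) or control library 2 (0.0554). Over both lists 6 of 10 tested genes were called, and 3 of 10 without control library 2, against 54.5% of all tested genes with every library in and 47.6% without that one. These counts are no result about the lists.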

How the data were processed

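RNA-seq of 6 HCT15 libraries was used, 3 labelled RBM15 knockout and 3 with a control guide, matched to columns by name. The authors deposited FPKM, per the file headers; HISAT2 2.2.1, StringTie 2.0.4 and hg38 are named in the submitters' processing notes. Settings, annotation, strand use and the row filter are not stated there. Ratios of values below 0.5 FPKM between libraries showed no steps of whole reads (at most 0.93% in a window 0.1% wide), so depth is unknown and precision rests on 3 libraries a group.

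The 11451 genes averaging 1 FPKM or more were fitted as log2(FPKM + 1) with limma 3.58.1 (R 4.3.3), a variance trend and no covariates; p-values were 2-sided, Benjamini-Hochberg adjusted, threshold 0.05. This scale understates the change of low genes. The code of the fit was tested on simulated data with independent libraries and few changed genes, which does not check the calls made here. Coordinates and transcripts came from GENCODE 29, promoters from RefSeq (GRCh38.p14; 10 of 10 ligand genes matched), aligned with Biopython 1.88. Python 3.11.15 and matplotlib 3.10.9 made tables and figures.

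The ligand genes and lists were chosen with earlier results of these data known. One regulator is not reported here and was left out of its list's counts. Other genes were named by rule: RBM15 and ATF4 always, up to 4 called members of each list with the largest difference, and the 3 genes averaging at least 5 FPKM over the 6 libraries most correlated with the ligand gene of largest rise and of largest fall. Alternatives were a pseudocount of 0.1, no filter or one at 5 FPKM, rescaling to TPM, centring on the median, quantiles, a fit with no trend, a replicate block and each library left out.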

Additional observations from a re-analysis of the deposited data

How the results depend on the processing

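The filter at 5 FPKM removed ULBP3, RAET1L and NCR3LG1 from the fit. RAET1L changed sign, with a log2 difference between -0.105 and 0.138 over the left-out libraries and no call; so did HDAC2 (-0.152 to 0.644) and FAS (-0.186 to 0.10). The list of other ligands and death receptors had 10 calls of 16 genes with a filter at 5 FPKM, against 16 of 22. With that filter the share was 62.5%, against 57.7% of all genes, so the list lay nearer to all genes than in the main fit. The shedding and GPI anchor genes had 3 to 5 calls of 10 with a library left out, against 6. In those fits 47.6 to 49.3% of all genes were called. The median difference of all genes moved between -0.027 and 0.025 over the settings. With the replicate number as a block, 5782 genes were called, against 6245, and BAG6 was not called (limma adjusted p = 0.0888); same-numbered libraries correlated in their deviations at -0.037 to 0.000 and 0 of 6 libraries correlated best with the library of their own number, so the numbers were not taken as pairs. FPKM without depth give no counting error for low genes such as NCR3LG1.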

Other observations

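A pair of genes named after their values were seen varied more between libraries of 1 group than between the groups. HDAC2, a histone deacetylase gene, had 59.2, 24.6 and 76.1 FPKM in the libraries labelled knockout, against 73.7, 27.2 and 38.3 FPKM in the control libraries (SE 0.481 on the log2 scale, limma adjusted p = 0.78). FAS, a death receptor gene, had 11.3, 17.3 and 14.5 FPKM in the libraries labelled knockout, against 12.3, 16.5 and 15.6 FPKM in the control libraries (limma adjusted p = 0.806). NECTIN3, a relative of the CD226 ligands, was below the filter of a mean of at least 1 FPKM, so the main fit did not test it. It had 0.0191, 0.0125 and 0.0712 FPKM in the libraries labelled knockout, against 0.176, 0.254 and 0.190 FPKM in the control libraries.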
